A study of Saccharomyces cerevisiae with 2 samples.

Results

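Chromosome XII of Saccharomyces cerevisiae carries the ribosomal DNA (rDNA), and the interactions described here are those between its unique sequences on both sides of the repeat. The members were all pairs of MspI fragments with both fragments on chromosome XII outside 451474 to 469370, the rDNA of the reference, that were neither the same fragment nor neighbours. They fell into 3 classes, both fragments left of the rDNA, both right of it, or one on each side. In the network of uniquely mapped sequences they made up 6468 of 342659 fragment pairs in glycerol lactate and 26488 of 713131 in galactose. The rule used position alone and no count.

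Genome conformation capture (GCC) joins DNA that lies close together in cross-linked chromatin, and every sequenced junction adds 1 count to the fragment pair it came from. The 2 samples were BY4741, a laboratory strain derived from S288C, grown in synthetic complete medium with glycerol lactate or with galactose (2% w/v) at 30 °C to an OD600 of 0.6 and cross-linked with 2% formaldehyde. Glycerol lactate is respired, whereas galactose supports respiro-fermentative growth. In each network the authors combined the sequences of 2 biological replicates, which leaves no measure of replicate error, and each comparison between media compares 2 libraries.

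In yeast the rDNA is a long tandem array that forms the nucleolus, a crescent at one side of the nucleus, while the centromeres are held together near the spindle pole body at the opposite side and the telomeres lie at the nuclear envelope. RNA polymerase I transcribes the large rRNA precursor from each active repeat and RNA polymerase III the 5S rRNA. Chromosome XII therefore passes through the nucleolus and leaves it again. The reference holds only a small number of the repeats, so distances measured across the rDNA on the reference are shorter than those in the cell.

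The rDNA lies in the right arm of chromosome XII, 300.3 kb from the centromere, CEN12, so the left side is not a chromosome arm. It holds the left arm, CEN12 and the first part of the right arm, 451.5 kb in all. The right side holds the remaining 608.8 kb up to the right telomere and no centromere. Of 536 left fragments, 524 were seen with another nuclear chromosome in glycerol lactate and 527 in galactose, and of 685 right fragments 642 and 640. The fragment of the left side nearest to the rDNA was at 449849 to 451473, next to the repeat, and holds the replication origin ARS1216. The nearest uniquely mapped fragment of the right side, at 489312 to 489501 in YLR161W, began 19.9 kb from the rDNA, and the stretch between holds the repeated ASP3 genes. The closest pair across the rDNA was 55.7 kb apart in glycerol lactate and 65.6 kb in galactose. For depth, the networks held 3221104 and 2338837 counts, of which adjacent fragments took 80.3% and 58.0%. Counts between different nuclear chromosomes came to 181286 in glycerol lactate and 363827 in galactose. All intervals below are 95% intervals for counting error alone. PCR copies of 1 ligation and separate ligations look the same in the tables, so the true errors are larger.

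Few of the interactions of chromosome XII crossed the rDNA. In galactose, 18194 counts fell within the left side, 22282 within the right side and 1007 across. Glycerol lactate had in the same classes 8358, 10012 and 695 counts. The highest count of any pair across the rDNA was 4 in glycerol lactate and 3 in galactose, against 193 and 116 within the right side. These sums mix distances, and most counts within a side came from near neighbours, with a median distance of 1.14 kb (left) and 1.06 kb (right) in glycerol lactate and 11.1 kb and 12.6 kb in galactose. All later comparisons were therefore made between pairs at least 20 kb apart and at matched distance.

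The 5 other chromosomes of more than 900 kb (IV, VII, XIII, XV and XVI) gave the level at matched distance. Each was divided at the same coordinates as chromosome XII, and the pooled counts per possible pair in bins of 10 kb gave the expected counts. Between 20 and 450 kb, galactose had 421 counts across the rDNA against 1295 expected, a ratio of observed over expected of 0.325 (0.295 to 0.358). The left side gave 0.951 (6475 counts) and the right side 1.05 (8626 counts), so both sides lay near the level of the other chromosomes. The ratio across the rDNA in glycerol lactate was 0.805 (0.709 to 0.911, 254 counts against 315 expected), with 1.05 on the left (868 counts) and 1.00 on the right (1059 counts). Pairs across the rDNA were below the expected level in both libraries, and much further below it in galactose. The counts per possible pair between chromosome XII and other chromosomes would alone give 461 counts across the rDNA in galactose and 249 in glycerol lactate.

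The ratio across divided by the ratio within both sides, here the crossing ratio, was 0.323 (0.292 to 0.356) for chromosome XII in galactose. The same ratio ran from 0.894 (chromosome VII) to 1.01 (chromosome IV) on the 5 other chromosomes, with a median of 0.944. No interval of these 5 reached that of chromosome XII. In glycerol lactate chromosome XII had a crossing ratio of 0.786 (0.687 to 0.897) and was again the lowest of 6, but the others ran from 0.872 (chromosome XV, 0.769 to 0.986) to 1.09 (chromosome VII). There, the interval of chromosome XII overlapped those of IV, XV and XVI. No test between chromosomes was made. With the boundary of the other chromosomes placed at the same distance from the centromere as the rDNA, their ratios were 0.922 to 0.992 in galactose and 0.878 to 1.07 in glycerol lactate.

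**Figure D1:**
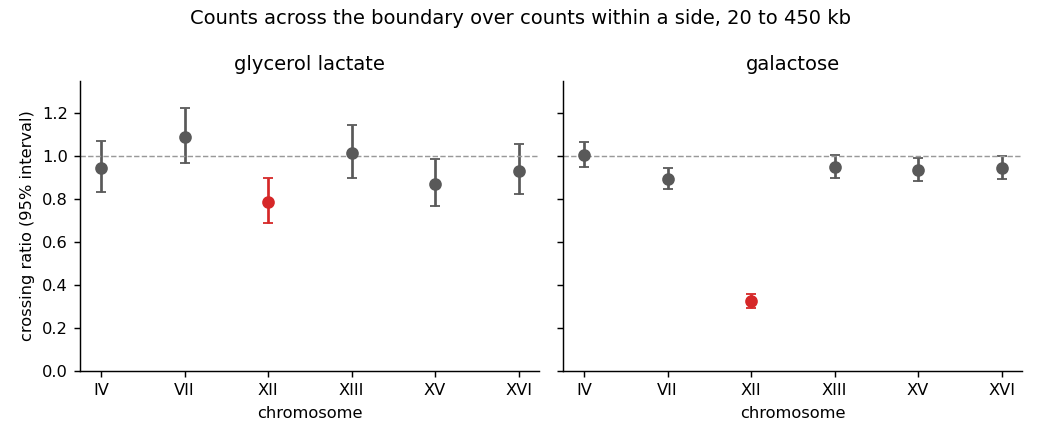
Crossing ratio (counts across the boundary over counts within a side, each relative to expected counts at matched distance, 20 to 450 kb) for the 6 chromosomes of more than 900 kb in each library, with 95% counting intervals. Chromosome XII (red) is at 0.786 in glycerol lactate and 0.323 in galactose, and the other 5 lie between 0.872 and 1.09.

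The deposited tables of all mapped sequences, which also hold sequences that map to repeats, gave other values. The crossing ratio of chromosome XII was then 0.850 (0.823 to 0.878) in galactose and 0.987 (0.953 to 1.02) in glycerol lactate, while those of the other chromosomes dropped to between 0.321 and 0.615 and between 0.0859 and 0.494. With pairs of more than 10 counts also left out, which was decided on after seeing the data, chromosome XII was at 0.373 against 0.878 to 1.02 in galactose, and at 0.885 against 0.741 to 1.18 in glycerol lactate, where 2 of the 5 others were lower.

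The deficit in galactose was present at every distance and deepest for the closest pairs. At 70 to 100 kb the left side had 48.3 counts per 1000 possible pairs and the right side 53.5, whereas pairs across the rDNA had 6.58 (3.50 to 11.3, 13 counts), or 0.140 of the expected number. The ratio of observed over expected was 0.197 at 100 to 150 kb, 0.318 at 150 to 200 kb and 0.371 at 200 to 300 kb. It was 0.415 at 300 to 450 kb, 0.419 at 450 to 600 kb and 0.407 at 600 to 900 kb, and 0.355 (0.251 to 0.488, 38 counts) for pairs farther apart. Counts across the rDNA thus varied only from 6.58 to 2.04 per 1000 possible pairs between 70 kb and the greatest distances, a range over which the other chromosomes went from 49.5 to 5.67. On chromosome IV, the longest one, pairs across the same coordinates and more than 900 kb apart had 5.46 counts per 1000. Chromosome XV had 5.88 there and chromosome VII 8.21. Pairs of chromosome XII across the rDNA had 5.03 at 100 to 150 kb (3.51 to 7.00, 35 counts). This interval holds the values of IV and XV but not that of VII.

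The deficit in glycerol lactate was largest in the nearest pairs. Those across the rDNA had 0.376 of the expected counts at 70 to 100 kb (0.102 to 0.963, from 4 counts) and 0.378 at 100 to 150 kb (0.181 to 0.696, from 10 counts). At 150 to 200 kb and at 200 to 300 kb the ratios were 0.734 and 0.838, and both intervals included 1. At 300 to 450 kb the ratio was 0.910 (0.767 to 1.07). Farther pairs were again below 1 by more than their intervals, with 0.820 (0.702 to 0.953, 172 counts) at 450 to 600 kb and 0.80 (0.70 to 0.910, 229 counts) at 600 to 900 kb. The other chromosomes themselves had only 2.46 counts per 1000 possible pairs at 300 to 450 kb in this library, while counts between chromosome XII and all other chromosomes stood at 2.20 per 1000.

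**Figure D2:**
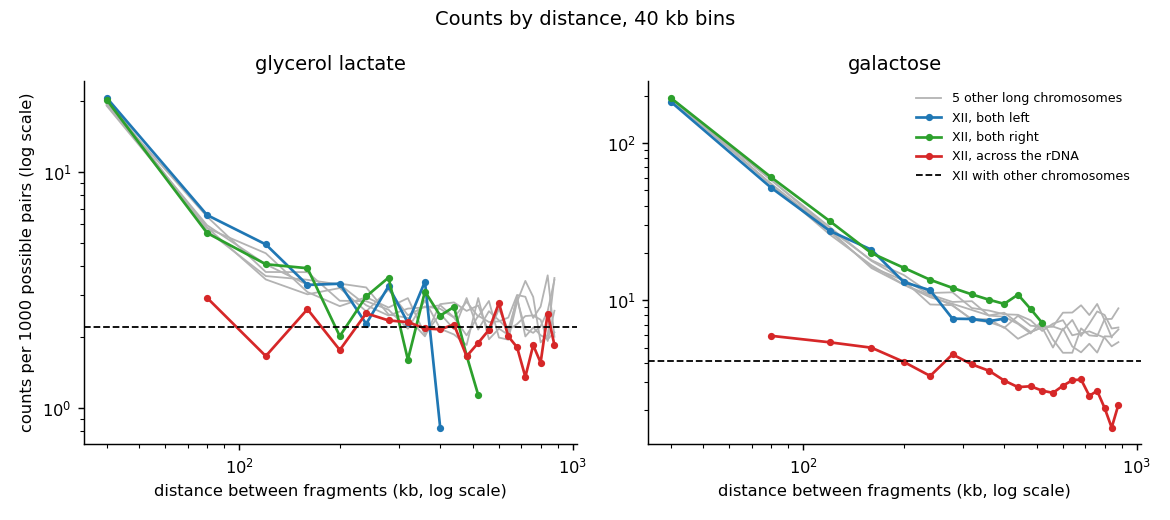
Counts per 1000 possible fragment pairs against distance (both axes on a log scale, bins of 40 kb) for pairs of chromosome XII left of the rDNA, right of it and across it, for each of 5 other long chromosomes (grey) and, as a dashed line, for chromosome XII with other chromosomes. In galactose the red line stays below every grey line, and in glycerol lactate the lines meet near the dashed level of 2.20.

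Inside each side, counts fell with distance as on the other chromosomes. The slope of log10 counts on log10 distance from 20 to 400 kb was -1.45 ± 0.03 (SE over 10 bins) on the left and -1.35 ± 0.05 on the right in galactose, against -1.44 to -1.50 for the other chromosomes. Slopes in glycerol lactate were -1.01 ± 0.08 and -1.04 ± 0.12, against -1.04 to -0.997. The right side had the shallowest slope in galactose, and its long-range pairs were above the expected level, with 1.27 (1.17 to 1.38) at 200 to 300 kb and 1.28 (1.16 to 1.41) at 300 to 450 kb. The left side at these distances had 0.999 and 0.894, and both intervals included 1. In glycerol lactate neither side departed from 1 by more than its interval at 200 to 450 kb.

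Counts with other chromosomes have no distance along the DNA, and they served as a second level. In galactose, pairs of chromosome XII across the rDNA had 2.99 counts per 1000 possible pairs against 4.08 between chromosome XII and other chromosomes, a ratio of 0.731 (0.686 to 0.778). The same ratio was 1.64 to 2.16 on the 5 other chromosomes. It was 1.31 (0.717 to 2.20) for pairs less than 100 kb apart, 1.20 (0.956 to 1.48) at 100 to 200 kb, 0.849 at 200 to 450 kb and 0.652 at 450 to 900 kb. In galactose, then, fragments on opposite sides of the rDNA and more than 200 kb apart met less often per pair than fragments of chromosome XII met fragments of other chromosomes. In glycerol lactate the ratio was 0.938 (0.868 to 1.01) against 1.02 to 1.21 on the other chromosomes. By distance it was 1.03 (0.895 to 1.18) at 200 to 450 kb and 0.888 (0.803 to 0.980, 401 counts) at 450 to 900 kb. It was 1.37 (0.592 to 2.70, 8 counts) below 100 kb on chromosome XII, where chromosome XV had the lowest of the others at 3.20.

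When the level with other chromosomes was taken off both observed and expected counts at 20 to 450 kb, an alternative added after seeing the data, the libraries came close to each other. The excess across the rDNA was -0.0481 of the expected excess in galactose (-0.0952 to 0.00251) and 0.0782 in glycerol lactate (-0.377 to 0.578). The other chromosomes had 0.837 to 1.04 in galactose and 0.502 to 1.19 in glycerol lactate. Summed over these distances, no excess of pairs across the rDNA over the level between chromosomes was detectable in either library. The galactose sum joins ratios to that level above 1 below 200 kb, whose intervals include 1, with 0.849 (0.759 to 0.947) at 200 to 450 kb. In glycerol lactate the interval of chromosome XII also holds the lowest value of the others, 0.502 on chromosome XV.

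Both sides of the rDNA also differed in the partners they had elsewhere. In galactose the left side, which holds CEN12, had 8.05 counts per 1000 possible pairs (7.81 to 8.30) with fragments within 30 kb of the centromeres of other chromosomes, and 4.24 with chromosome interiors. The right side had 1.68 (1.58 to 1.78) with the centromeres and 3.98 with interiors. Fragments more than 318.2 kb from their own centromere, as all of the right side is, had 2.05 to 2.60 on the 5 other chromosomes. The right side had the lowest value of 6 and its interval lay below those of the others. Only this smallest distance was matched, not the greatest, and chromosome IV, the longest, had the lowest of the others at 2.05 (1.96 to 2.15). Counts with the last 30 kb of other chromosomes were 3.53 and 3.21 for the left and the right side. The left side in glycerol lactate had 2.75 with centromeres and the right side 2.12 (2.01 to 2.24), and far fragments of the other chromosomes had 2.11 to 2.21.

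The right side was also set against the region of CEN12. In galactose it had 1.52 counts per 1000 possible pairs with fragments within 30 kb of CEN12 (64 counts), a ratio to the centromeres of other chromosomes of 0.904 (0.691 to 1.16). The 15 other chromosomes gave 1.13 to 2.08 one by one. With the interior of the left side it had 3.26, which was 0.819 (0.766 to 0.875) of the value with the interiors of other chromosomes. One by one these interiors gave 1.69 to 4.88, and 4 of 15 were below 3.26. With the first 30 kb of chromosome XII the right side had 2.10 (35 counts), a ratio to other ends of 0.655 (0.455 to 0.915). Here too 4 of the 15 others were lower. In glycerol lactate the ratios were 0.780 (0.603 to 0.994, 69 counts) for CEN12 and 0.966 (0.889 to 1.05) for the interior. For the end the ratio was 1.03 (0.708 to 1.46, 33 counts). Of the 15 other chromosomes, 2, 6 and 9 were lower for CEN12, the interior and the end. This division by position was also added after seeing the data.

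The position of the deficit was followed by moving a boundary along the chromosome in steps of 10 kb and counting pairs across it within 200 kb on both sides. At the rDNA, galactose gave 224 counts against 817 expected, a ratio of 0.274 (0.240 to 0.313). None of 352 positions on the 5 other chromosomes was as low, with a median of 0.977 and a lowest value of 0.667 on chromosome IV, 90.3 kb right of its centromere. Neighbouring positions share many of their pairs, so the positions are not independent and the rank is a description only. Across 5 centromeres the ratio was 1.01 to 1.20. At 26 positions of chromosome XII more than 200 kb from the middle of the rDNA it was 0.901 to 1.23. In glycerol lactate the rDNA gave 0.725 (0.602 to 0.867), again below all 352 positions, but the lowest of these, 0.798, lay inside its interval. Within 100 kb on both sides the ratio at the rDNA was lower in both libraries, at 0.164 (0.126 to 0.211, 61 counts) in galactose and 0.439 (0.278 to 0.659, 23 counts) in glycerol lactate. None of 452 positions on the other chromosomes was below it, the lowest being 0.474 and 0.502, and in glycerol lactate the latter lay inside the interval at the rDNA.

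**Figure D3:**
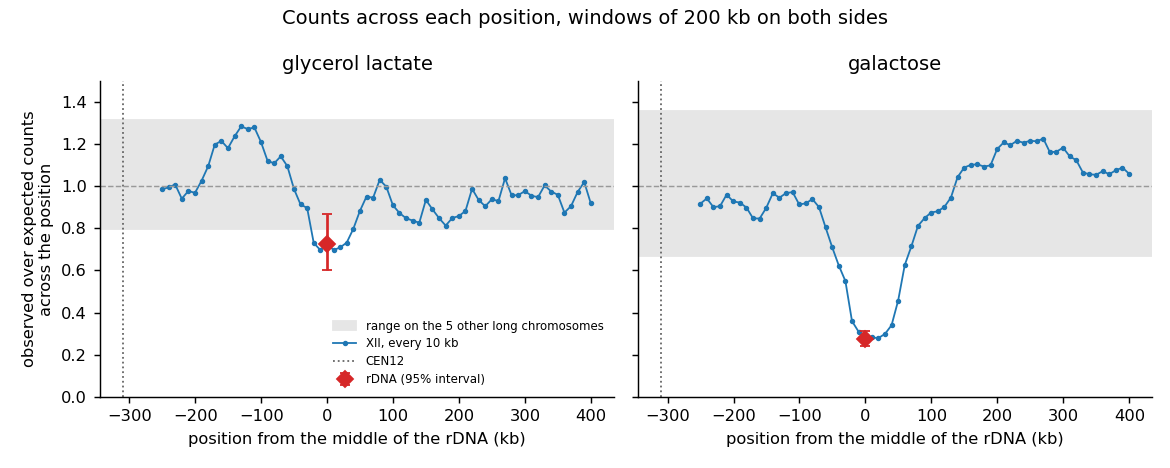
Observed over expected counts across each position of chromosome XII (blue, every 10 kb, windows of 200 kb on both sides), plotted by distance from the middle of the rDNA, with the value at the rDNA (red, 95% counting interval) and the range on 5 other long chromosomes (grey band). In galactose the curve falls from near 1 to 0.274 at the rDNA and returns to 1 on the other side, and in glycerol lactate the lowest values lie at the rDNA (0.725) and at positions next to it.

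In windows of 50 kb counted outwards from the rDNA, the deficit in galactose covered both sides. The window next to the rDNA had 0.254 of the expected counts across it on the left (125 counts) and 0.189 on the right (72 counts). On the right side, which is far from CEN12 throughout, the value rose to 0.520 at 200 to 250 kb and was 0.342 to 0.509 beyond. On the left side it reached 0.507 at 200 to 250 kb and was lower again around CEN12, with 0.242 at 250 to 300 kb and 0.282 at 300 to 350 kb. The outermost window of each side, with 1 to 3 fragments, was left out here. Of the remaining combinations of a left and a right window, 108 of 108 were below 1 in galactose, with a median of 0.388 and a highest value of 0.985. In glycerol lactate 69 of 108 were below 1, with a median of 0.865. Within sides, 21 of 36 left and 15 of 66 right combinations were below 1 in galactose, and 18 and 36 in glycerol lactate.

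**Figure D4:**
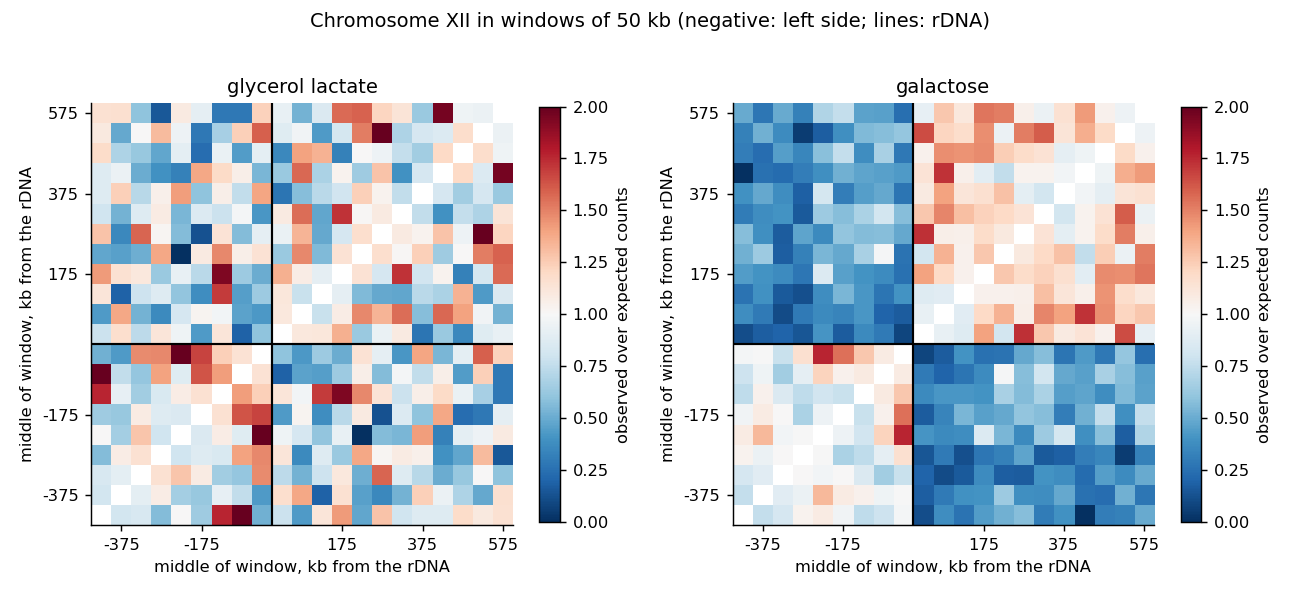
Observed over expected counts between windows of 50 kb of chromosome XII, ordered by distance from the rDNA (negative values left, black lines at the rDNA), on a colour scale from 0 (blue) to 2 (red), without the outermost window of each side, which holds 1 to 3 fragments. In galactose the 108 squares shown that pair opposite sides are below 1, and in glycerol lactate 69 of 108 are.

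Genes along the chromosome showed the same division. Windows of 20 kb were centred on 13 landmark genes, and counts with the other side were set against counts with the same side, each relative to the expected number. In galactose the ratio was below 1 for 13 of 13 genes, with each interval below 1, and ran from 0.0716 to 0.506 with a median of 0.384. In glycerol lactate it was below 1 for 11 of 13 with a median of 0.832, and 2 intervals lay below 1 and 1 above it. Several windows share partners, so the genes are not independent.

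On the left side, ACS2 (445525 to 447576), which encodes an acetyl-coA synthetase, is the nearest to the rDNA. Its window had 284 counts with the left side and 14 with the right side in galactose, where 143 were expected from the right side, and the ratio was 0.0716 (0.0386 to 0.122), the lowest of the 13. In glycerol lactate it had 51 and 18 counts and a ratio of 0.399 (0.219 to 0.694). There, 29.1 counts were expected from the left side, so its own side was at 1.75. With the right side alone it was at 0.699 (0.414 to 1.10), an interval that includes 1. GAL2 (290213 to 291937), the galactose permease gene, gave the highest ratio of the 13 in galactose, 0.506 (0.392 to 0.643, 73 counts with the other side), and 0.442 (0.278 to 0.680, 26 counts) in glycerol lactate. ACS2 and GAL2 were the genes whose interval of this ratio lay below 1 in both libraries. For GAL2 in glycerol lactate, observed over expected counts with the right side alone were 0.517 (0.338 to 0.757). PDC1, for pyruvate decarboxylase, had 0.441 in galactose and 0.886 in glycerol lactate. PPR1, for the activator of the pyrimidine pathway and located near CEN12, had 0.235 and 0.690. HSP104, for the disaggregase of heat-stressed proteins, had 0.419 and 1.16.

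On the right side, IDP2, for cytosolic isocitrate dehydrogenase, is nearest to the rDNA at 35.8 kb. It had 59 counts with the left side in galactose where 299 were expected, and its ratio was 0.20 (0.150 to 0.261), the lowest of this side. In glycerol lactate it was 0.832 (0.569 to 1.20). GSY2 (glycogen synthase), ACO1 (aconitase), NUP2 (a nuclear pore protein) and FKS1 (a subunit of glucan synthase) had 0.384, 0.462, 0.496 and 0.469 in galactose, and 0.862, 0.817, 0.826 and 0.95 in glycerol lactate. FBP1, for the gluconeogenic fructose bisphosphatase, had 0.277 and 0.753, and COX8, for a subunit of cytochrome c oxidase, 0.327 and 0.979. ILV5 (838065 to 839252), for a mitochondrial enzyme of branched-chain amino acid synthesis that is also found with mitochondrial DNA, had 0.316 (0.210 to 0.457) in galactose and 1.98 (1.33 to 2.92) in glycerol lactate. In the latter library its window had 47 counts with the left side, where 35.5 were expected, and 66 with the right side, where 98.6 were expected. It was the one window with an interval above 1. Its observed over expected counts with the left side alone were 1.32 (0.973 to 1.76), an interval that includes 1, and 0.670 with the right side.

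**Figure D5:**
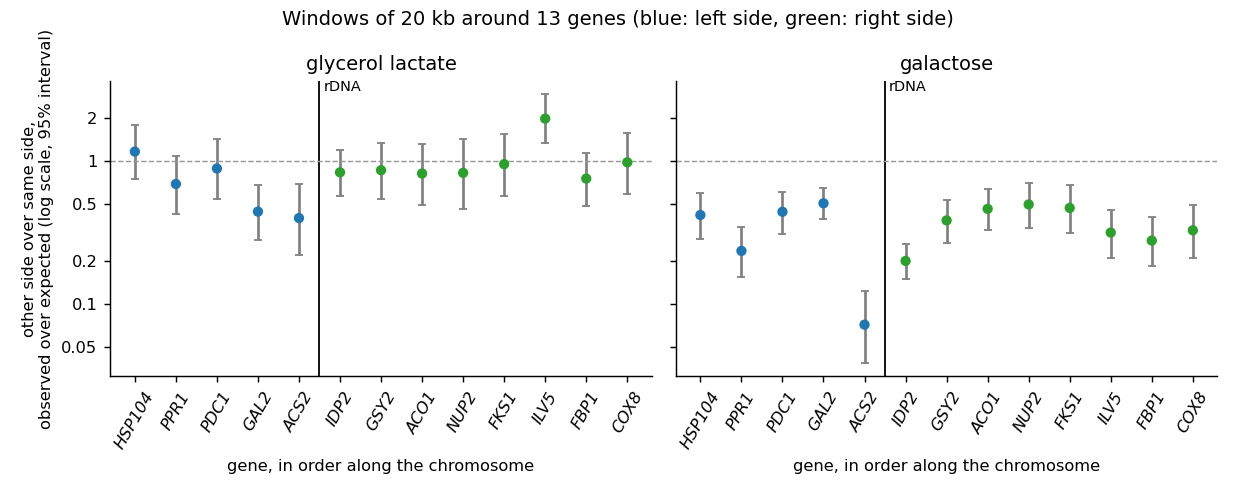
Counts with the other side over counts with the same side, each relative to expected counts, for windows of 20 kb around 13 genes in their order along chromosome XII (log scale, 95% counting intervals; blue, left side; green, right side). In galactose all 13 points lie between 0.0716 (ACS2) and 0.506 (GAL2), and in glycerol lactate they spread from 0.399 (ACS2) to 1.98 (ILV5).

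Single pairs were thinly sampled. Between 20 and 450 kb, 234 of 112903 possible pairs across the rDNA were seen in glycerol lactate and 394 of 112897 in galactose, and 1 pair was seen in both, 0.427% and 0.254% of these lists. On the 5 other chromosomes, 2 to 11 pairs across the same coordinates were seen in both, 0.735% to 3.82% of the glycerol lactate lists and 0.160% to 0.859% of the galactose lists. Of the pairs within the left side, 92 were in both (12.3% of 747 and 1.63% of 5636), and within the right side 120 (13.1% of 913 and 1.59% of 7551). Within the sides of the other chromosomes the shares were 10.3% to 15.9% and 1.40% to 2.00%, so most pairs of every class were seen in 1 library only. A count of at least 3, used here as a noise cut-off, was reached by 0.00778% of the possible pairs of the other 5 chromosomes in glycerol lactate and by 0.0517% in galactose. Across the rDNA, 4 pairs (0.00354%) reached it in glycerol lactate and 1 (0.000886%) in galactose. Within the sides, 19 left and 22 right pairs reached it in glycerol lactate (0.0152% and 0.0123%), and 91 and 114 in galactose (0.0721% and 0.0639%). These background shares hold pairs of all 3 classes. Across the same coordinates, the other 5 chromosomes had 0.000903% to 0.00658% (1 to 7 pairs) in glycerol lactate, a range that holds chromosome XII. In galactose they had 0.00269% to 0.0112% (3 to 12 pairs), above chromosome XII. Their left sides had 0.00625% to 0.0138% in glycerol lactate and 0.0733% to 0.0915% in galactose. Their right sides had 0.00763% to 0.0100% and 0.0499% to 0.0814%.

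The most frequent pair across the rDNA in glycerol lactate joined a fragment in UBI4, the polyubiquitin gene (63855 to 64155), with one in YLR356W (840808 to 841173), 777 kb away, with 4 counts. Next came 3 counts between VPS13, for a lipid transport protein (61859 to 62840), and YLR419W (962120 to 962529), and 3 between a fragment with DAN2, COX12 and RIC1 (221536 to 226666) and one in FMP27 (1045686 to 1049217). In galactose the pairs named by the same rule had 3 counts each. They joined XYL2 (274904 to 274926) with LEU3 and SST2 (1038515 to 1041512), RPL10 and FMP25 (283245 to 284635) with a fragment that holds no annotated gene (875259 to 875293), and DIP2 (401865 to 402513) with VRP1 (803991 to 804734). The XYL2 fragment and the one without a gene are shorter than the 38 bp reads. They had 15 and 26 counts with other chromosomes, against a median of 48 on chromosome XII. Within sides, the pairs with the highest counts had 4 or 3 counts in glycerol lactate, among them AAT2 with YPS1 at 191 kb. In galactose they had 5 or 4, among them OSW2 with MEF1 at 23.6 kb and RPS1A and SIR3 with LEU3 and SST2 at 20.8 kb. Each of the 18 pairs chosen in this way, 3 per class and library, had 0 counts in the other library, where a count of 0 allows up to 3, as did most pairs of every class.

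The ends of chromosome XII lie on opposite sides of the rDNA. Between its first and last 30 kb there were 5 counts in galactose over 442 possible pairs, or 11.3 per 1000 (3.67 to 26.4), and 4.46 to 12.5 per 1000 on the 5 other chromosomes. The ends of chromosome XII had 7.86 per 1000 with the ends of other chromosomes. In glycerol lactate there was 1 count over 425 possible pairs (0.0596 to 13.1 per 1000), and chromosomes XV and XVI had 0. At this depth a difference between the ends of chromosome XII and those of the others was not detectable.

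Contacts of each side with the rDNA itself were taken from all mapped sequences. In galactose they fell with distance, from 21.0 counts per fragment at 50 to 100 kb to 7.23 at 300 to 450 kb on the left, and from 17.6 to 10.1 on the right, where fragments at 450 to 610 kb had 8.87. The median of 15 other chromosomes was 7.63. In glycerol lactate both sides had between 6.26 and 8.89 counts per fragment, and the other chromosomes a median of 7.75. Values of both sides start at 50 kb, and none are given for nearer fragments of the left side. Fragments of the right side within 50 kb of the rDNA were left out, since 2 of these fragments took 188523 of their 196297 counts in galactose.

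Between the libraries, pairs across the rDNA took 11.6% (10.3 to 13.1, 254 of 2181) of the counts of chromosome XII at 20 to 450 kb in glycerol lactate and 2.71% (2.46 to 2.98, 421 of 15522) in galactose, a difference of 8.93 percentage points. The odds ratio was 4.73 (Fisher's exact test, two-sided, p = 1.6e-66), which compares the libraries and not the media. On the 5 other chromosomes, divided at the same coordinates, the odds ratio was 1.71 to 2.03, so pairs on opposite sides took a larger share of counts in glycerol lactate there too. The share of all counts between adjacent fragments (80.3% against 58.0%) moved with this difference, and its part in it was not tested. With all mapped sequences the odds ratio was 2.01.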

How the data were processed

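GCC was performed by the authors on BY4741 cells in both media, with MspI, paired-end sequencing (38 bp per the labels) and mapping with SOAP without mismatches. The authors deposited, for each medium, tables of counts per fragment pair made with Topography 1.19 from 2 combined biological replicates, without normalization, for uniquely mapped and for all mapped sequences. Each pair was counted once. File positions count from 0 and are given from 1, on the reference sequences the tables name. Possible pairs are pairs of fragments seen with another nuclear chromosome in the same library. Expected counts are those of the 5 other chromosomes of more than 900 kb per possible pair in bins of 10 kb, each of these against the other 4. Ratios have exact conditional binomial intervals and counts exact Poisson intervals (95%). They treat counts as independent. A total of 24 alternatives were tried, and 4 were added after the data were seen. The named genes were the 13 landmark genes, the 3 pairs with the highest counts in each class and library (at least 20 kb apart, ties to the larger distance) and the fragments nearest to the rDNA. Members, lists and tests were chosen with earlier results of these data known. Sequences were not used here. Scripts ran under scipy 1.17.1, pandas 2.3.3, numpy 2.4.6, matplotlib 3.10.9 and Python 3.11.15.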

Additional observations from a re-analysis of the deposited data

Results flagged for a closer look

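The share of counts across the rDNA differed between the libraries, with an odds ratio of 4.73 for glycerol lactate against galactose at 20 to 450 kb (Fisher's exact test, two-sided, p = 1.6e-66), and was higher in glycerol lactate. The crossing ratio was 0.786 in glycerol lactate and 0.323 in galactose, with intervals that did not overlap. With the level of other chromosomes subtracted, an alternative added after seeing the data, the intervals did overlap. The ratio was then 0.0753 (-0.363 to 0.556) in glycerol lactate and -0.0478 (-0.0945 to 0.00249) in galactose. The odds ratio on the 5 other long chromosomes was 1.71 to 2.03. Each medium has 1 combined library, so a difference between media was not tested.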

How the results depend on the processing

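The crossing ratio of chromosome XII was below 1 under 19 of 19 alternatives in each library, leaving aside those added after seeing the data, from 0.780 to 0.987 in glycerol lactate and from 0.313 to 0.850 in galactose. Chromosome XII had the lowest of 6 ratios in 13 of the 14 settings that also gave the others, the exception in both libraries being all mapped sequences (0.987 with an interval of 0.953 to 1.02 that includes 1, and 0.850). In galactose the ratio was 0.392 with expected counts in proportion to counts with other chromosomes, 0.366 up to 900 kb, 0.356 with the excluded region widened by 20 kb, and, among those added, 0.373 with all mapped sequences and counts above 10 left out, which in glycerol lactate gave 0.885 with 2 of 5 other chromosomes lower. With the level of other chromosomes subtracted, also added, it was -0.0478, and 0.0753 in glycerol lactate. Without ends and centromeres, counts across the rDNA over counts with other chromosomes were 0.804 in galactose. From 50 kb on, slopes were -0.770 (left) and -0.629 (right) in glycerol lactate and -1.38 and -1.23 in galactose. The boundary scan in windows of 100 kb gave 0.439 and 0.164. The odds ratio between libraries kept its direction under 4 of 4 alternatives, at 2.01 with all mapped sequences, 4.03 from 50 kb on, 4.57 with counts above 10 also left out of all mapped sequences and 4.72 with distinct pairs. The causes of these shifts were not tested. No paired analysis was possible because each medium has 1 library. Replicates were combined before deposit, pairs across the rDNA rest on 254 and 421 counts at 20 to 450 kb, and the reference distance across the rDNA is shorter than that in the cell.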
